A study of Mus musculus with 3 samples.

Results

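The mature myelin genes described here were 10 genes of 30559 in the count tables, chosen by symbol as Mbp, Mog, Mag, Mobp, Cldn11, Mal, Ermn, Cnp, Opalin and Cldn14, and all 10 were found. They were followed in nuclei of neurospheres grown from the subventricular zone of newborn mice, a niche of neural stem cells, and left to differentiate until day 15 in vitro. The 3 conditions had 1 library each: control, CBPf/f cultures given Cre (CBP-ablated) and p300f/f cultures given Cre (p300-ablated). CBP and p300 are paralogous lysine acetyltransferases that act as coactivators of transcription. Per the methods, the cells received lentivirus, which carried Cre fused to mCherry in the ablated cultures and red fluorescent protein in the control, whereas the treatment label of the 3 samples reads tamoxifen. The floxed line that the control cultures came from was not given in the sources used here. Each library was made from a pool of about 15 cultures, sorted as nuclei, with 16000 nuclei loaded, so that variation between cultures could not be measured. Every ratio to control shares the 1 control library.

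Oligodendrocytes arise from dividing precursors, pass a premyelinating stage and then switch on the genes of the myelin sheath, the spiral of membrane that insulates axons. Myelin is compact where the cytoplasm has been squeezed out by basic proteins, and it is sealed by tight junction strands and held to the axon by adhesion molecules. The transcription factors SOX10 and MYRF are known activators of many of these genes. In cultures grown from neurospheres, oligodendrocytes are a minor product beside astrocytes, so a level measured over a whole library can move with the number of oligodendrocytes or with the level in each of them.

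To tell these apart, the counts of unique molecular identifiers (UMIs, each 1 captured RNA molecule) were summed in nuclei with at least 4 UMIs of Mog, Mag, Mobp and Ermn together, called here nuclei past the myelin gate, and in all other nuclei. Levels (CPM) are the UMIs of a gene over all UMIs of the same nuclei, scaled to 1000000 UMIs. The 4 genes of the gate are partly fixed by it, and their levels past the gate are a description, whereas Mbp, Cldn11, Mal, Cnp, Opalin and Cldn14 took no part in it. With 1 library per condition there was no test between conditions. Intervals are 95% intervals and cover counting error only: exact Poisson for levels, Clopper-Pearson for shares, Newcombe for differences of shares and conditional binomial for ratios. The interval of a median over members is a normal approximation from the UMIs of its middle genes, and leaves out the spread between members.

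The promoters of 4 members, from 250 bases before to 50 bases after a RefSeq start site (GRCm38.p6), are printed because these genes carried the gate or the differences described below. Capitals mark matches to a SOX word (ACAAAG or ACAATG) or a MYRF word (CTGGCAC or CTGGTAC), read on both strands, so that CTTTGT and GTACCAG are matches on the opposite strand. Mog lies on chromosome 17, minus strand, at chr17:37023349-37023648, Mag on chromosome 7, minus strand, at chr7:30914814-30915113, Mobp on chromosome 9, plus strand, at chr9:120149492-120149791, and the distal start of Cldn14 on chromosome 16, minus strand, at chr16:94008788-94009087.
Mog: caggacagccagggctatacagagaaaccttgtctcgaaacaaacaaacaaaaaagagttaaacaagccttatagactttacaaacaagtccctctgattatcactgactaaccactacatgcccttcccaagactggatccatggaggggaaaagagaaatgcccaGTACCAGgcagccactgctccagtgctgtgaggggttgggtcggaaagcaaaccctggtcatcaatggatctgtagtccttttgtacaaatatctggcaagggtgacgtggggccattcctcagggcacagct
Mag: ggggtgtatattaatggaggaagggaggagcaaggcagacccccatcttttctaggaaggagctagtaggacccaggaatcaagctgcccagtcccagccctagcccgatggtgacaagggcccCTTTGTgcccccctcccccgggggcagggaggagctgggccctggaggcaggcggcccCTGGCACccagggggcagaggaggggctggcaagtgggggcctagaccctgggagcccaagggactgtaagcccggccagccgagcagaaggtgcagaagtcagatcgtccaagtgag
Mobp: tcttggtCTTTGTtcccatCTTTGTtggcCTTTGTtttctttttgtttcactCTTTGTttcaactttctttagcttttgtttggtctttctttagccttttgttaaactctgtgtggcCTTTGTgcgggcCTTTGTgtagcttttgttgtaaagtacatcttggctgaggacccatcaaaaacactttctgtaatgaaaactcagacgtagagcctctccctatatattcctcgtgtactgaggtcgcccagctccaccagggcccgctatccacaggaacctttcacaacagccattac
Cldn14: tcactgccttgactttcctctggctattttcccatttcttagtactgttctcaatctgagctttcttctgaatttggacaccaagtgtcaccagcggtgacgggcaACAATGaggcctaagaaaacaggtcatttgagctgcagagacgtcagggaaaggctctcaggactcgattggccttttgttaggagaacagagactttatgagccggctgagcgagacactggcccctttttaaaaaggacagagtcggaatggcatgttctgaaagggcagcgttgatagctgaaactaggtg
Mobp held 6 SOX words, at positions -243 to -120 from its start site. Mag held a SOX word and a MYRF word, Mog a MYRF word alone and Cldn14 a SOX word alone. Promoters were examined for 9 of the 10 members, 13 in all because Mag and Cldn14 had several start sites. The promoter of Mbp was not among those examined, so nothing is said of its words. A SOX word was found in 7 of the 13 (6 of 9 genes) and in 28.6% of 32851 promoters of the same length. A MYRF word was found in 5 of the 13 (Mag, Cnp, Mog and Opalin) and in 7.10% of the same 32851 promoters. No SOX match overlapped a MYRF match. The E-box words CAGCTG or CACCTG stood in 5 of the 13 against 32.9% of the 32851, the CREB word TGACG in 5 against 20.8%, and TATAAA in 0 against 13.6%. The Cldn14 promoters at chr16:93929768-93930067 and chr16:93929518-93929817 overlap and share an E-box word, counted in both. Likewise, the Mag promoters at chr7:30914814-30915113 and chr7:30914873-30915172 overlap and share their SOX word and their MYRF word, each counted in both. A match is a stretch of letters and says nothing of binding in these cells.

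The libraries held 4884, 3017 and 4648 nuclei (control, CBP-ablated and p300-ablated) and between 12748336 and 18876682 UMIs. The libraries shared 3, 7 and 1 cell barcodes in pairs. The median nucleus past the myelin gate had 5310.5, 5940 and 6159 UMIs, against 3185, 3755.5 and 3859 in the other nuclei. The targeted genes were detected at like levels in the 3 libraries, Crebbp at 335, 370 and 365 CPM and Ep300 at 114, 136 and 115 CPM. Neither gene was thus lower in the library ablated for it. Cre removes 1 exon of each, and counts over the rest of the transcript do not check the deletion of Crebbp. For Ep300 the study describes a loss of mature mRNA on recombination. Per the methods, reads in exons and introns were counted, so these nuclear counts include unspliced transcript and cannot check that loss. The study states that removal of CBP and p300 was checked in differentiating cultures, and shows images of CBP staining. CBP-ablated and p300-ablated stand throughout for the libraries labelled so. The myelin gate was matched by other genes of mature oligodendrocytes: 31 of 32 on a list of them were at least 2-fold higher in nuclei past the gate than in the others in all 3 libraries, and 19 of the 20 with 100 UMIs in each library, where 5.09% of 9289 genes were. Of the precursor genes 8 of 8 were at least 2-fold lower, where 15.8% of genes were. Of 12 premyelinating genes 0 and of 9 regulators 2 were at least 2-fold higher, and 1 of the 8 regulators that passed the UMI filter of all genes. Few nuclei past the gate also passed a microglial (0, 1 and 0), neuronal (1, 7 and 2), astrocyte (4, 3 and 2) or precursor gate (0, 8 and 4).

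Nuclei past the myelin gate were more frequent in the CBP-ablated library than in control, and slightly more frequent in the p300-ablated library than in control. They numbered 170 of 4884 in control (3.48%, 2.98 to 4.03), 513 of 3017 in the CBP-ablated library (17.0%, 15.7 to 18.4) and 200 of 4648 in the p300-ablated library (4.30%, 3.74 to 4.93). The CBP-ablated share exceeded control by 13.5 percentage points (12.1 to 15.0), a ratio of 4.89, and it exceeded the p300-ablated share by 12.7 points (11.3 to 14.2). The p300-ablated share exceeded control by 0.822 points (0.0455 to 1.61). Since deeper nuclei pass a UMI gate more easily, each nucleus was also thinned to 1500 UMIs, which left 4636, 2922 and 4513 nuclei. The shares were then 1.83%, 10.4% and 2.26%, with a difference from control of 8.57 points (7.43 to 9.78) for CBP and 0.427 points (-0.156 to 1.02) for p300. In another setting, every nucleus past a microglial, neuronal or astrocyte gate was left out of the libraries, which lowered the totals most. Nuclei past the myelin gate were then 165 of 2995 in control and 196 of 3557 in p300-ablated, a difference of 0.00108 points. A share of a library moves with every other cell type in it, and a gain of oligodendrocytes and a loss of other cells cannot be told apart here.

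**Figure D1:**
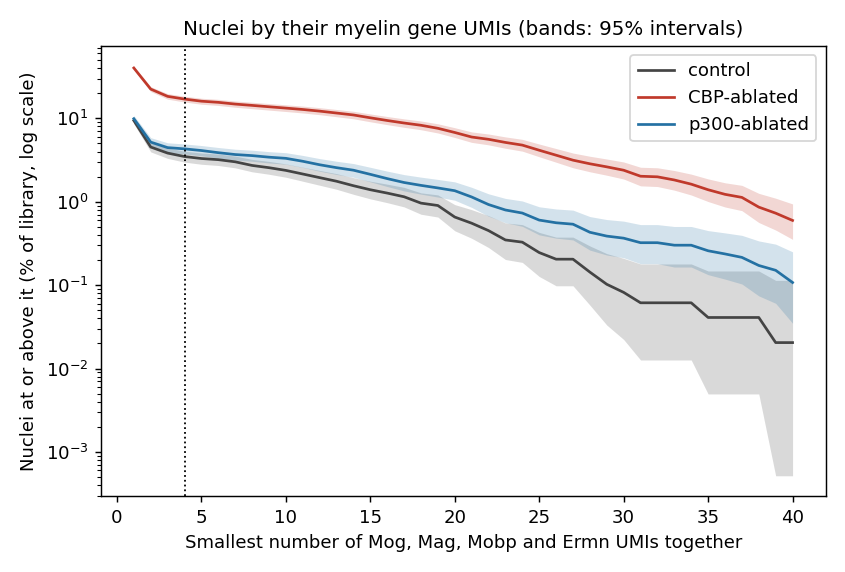
Share of nuclei (percent of the library, log scale) with at least the number of Mog, Mag, Mobp and Ermn UMIs on the horizontal axis, by library, with 95% intervals as bands and the gate of 4 UMIs as a dotted line. The CBP-ablated curve lies above both others at every threshold drawn.

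Most nuclei held none of the 4 gate genes: the share at 0 UMIs was 90.6% in control and 90.1% in p300-ablated, but 59.9% in CBP-ablated nuclei. Past the gate the median sum was 13, 17 and 14 UMIs, and the highest 48, 52 and 53. The gate fell where few nuclei lay, with 51, 163 and 41 nuclei at 2 to 3 UMIs and 14, 44 and 20 at 4 to 5. Mbp, which was not part of the gate, stood at 1728, 1782 and 1074 CPM in the nuclei at 2 to 3 UMIs and at 3758, 3888 and 3365 CPM in those at 4 to 5.

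Over whole libraries, all 10 members were at least 2-fold higher in the CBP-ablated library than in control, where 2.89% of 11883 genes with 100 UMIs in the pair of libraries were and 3.99% were 2-fold lower. The median log2 ratio of the 10 was 2.13, against 0.06 over all genes tested. Mbp, the main basic protein of compact myelin, had 347, 1651 and 410 CPM (control, CBP-ablated, p300-ablated). Mobp, another basic protein of compact myelin, had 42.8, 297 and 59.8 CPM and the highest log2 ratio of CBP-ablated to control among the 10, 2.79 (2.68 to 2.91). Cnp, the cyclic nucleotide phosphodiesterase of non-compact myelin, had 19.4, 46.7 and 16.1 CPM and the lowest, 1.27 (1.07 to 1.47). The CBP-ablated library was the high one for every member, and the other 2 libraries were near each other except for Cldn14.

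In the p300-ablated library 1 of the 10 members was at least 2-fold higher than control, where 0.694% of 12247 genes were, and 0 were 2-fold lower, where 2.12% were. That gene was Cldn14, a claudin of tight junctions better known from the inner ear and kidney, with 26.9, 145 and 54.4 CPM. Its log2 ratio of p300-ablated to control was 1.02 (0.85 to 1.18). The other 9 lay between -0.33 for Mal and 0.53 for Ermn. Set against the p300-ablated library in place of control, the CBP-ablated library was at least 2-fold higher for 10 of 10 members, where 3.00% of all genes were and 2.57% were 2-fold lower.

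**Figure D2:**
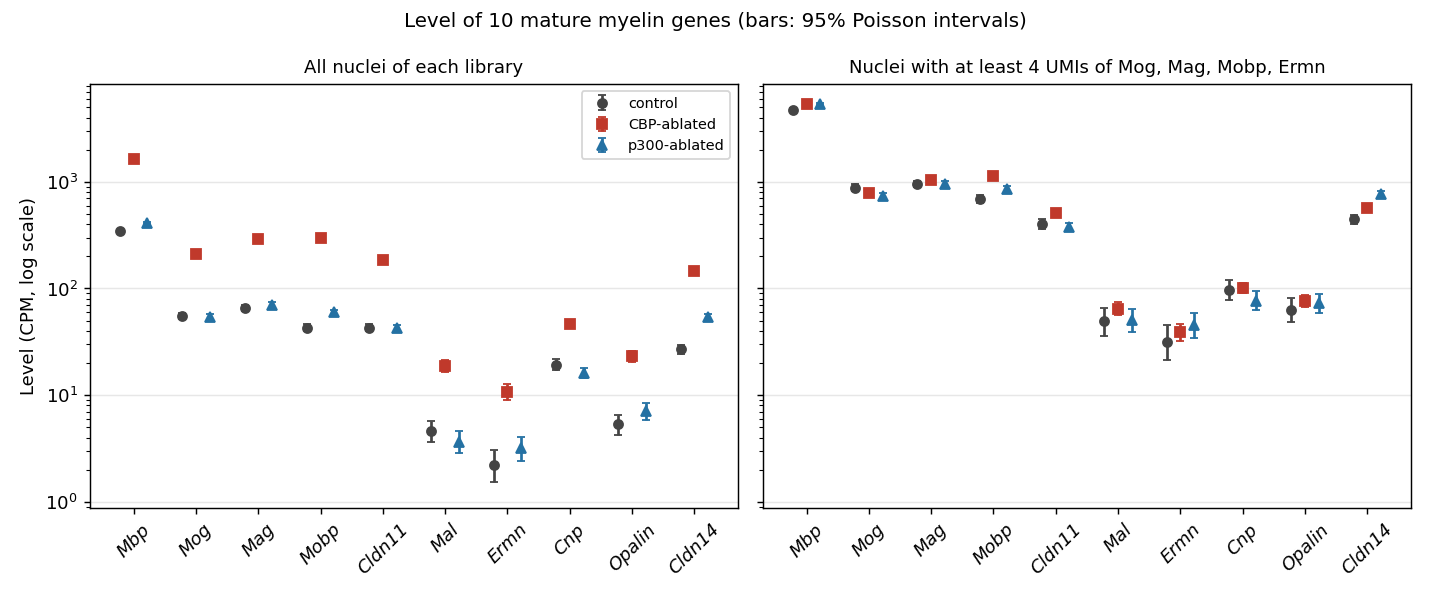
Level of the 10 genes in CPM (log scale) over all nuclei of each library (left) and over the nuclei past the myelin gate (right), with 95% Poisson intervals. The CBP-ablated squares stand apart in the left panel, and the 3 libraries lie close together in the right panel.

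Within nuclei past the gate, the difference between the CBP-ablated library and control was much smaller. Of the 10 members, 0 were 2-fold higher or lower, where 1.42% of 5079 genes were 2-fold higher and 0.827% lower. The 6 members outside the gate had a median log2 ratio of 0.32, against 0.10 over all genes tested, and 3 of them had an interval above 0. When nuclei were thinned to 1500 UMIs this median was 0.03, and with a gate of 13 other mature genes it was 0.78 (0.53 to 1.02). Of the nuclei past that 13-gene gate, 54.6%, 82.8% and 42.5% (control, CBP-ablated, p300-ablated) also passed the myelin gate. Ratios under the 13-gene gate thus compare unlike sets of nuclei.

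Mbp (chromosome 18, 82475146 to 82585637, plus strand, GRCm38) had 4737 CPM (4596 to 4880) in control, 5414 (5333 to 5496) in CBP-ablated and 5355 (5227 to 5485) in p300-ablated nuclei past the gate. Both ablated libraries were thus above control, with log2 ratios of 0.19 (0.14 to 0.24) and 0.18 (0.12 to 0.23), and they did not differ from each other beyond counting error (0.02, -0.03 to 0.06). With a gate of 13 other mature genes in place of the 4, the p300-ablated to control ratio of Mbp was -0.18 (-0.24 to -0.11), and with Ninj2 left out of these it was 0.17. Single nuclei past the gate varied widely within each library, with the counting error of single nuclei included. The middle range of Mbp, from the lower to the upper quartile, was 3048 to 6339 CPM in control, 3779 to 7020 in CBP-ablated and 3531 to 7110 in p300-ablated nuclei.

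Mobp (chromosome 9, 120149707 to 120181484, plus strand) had 692 CPM (639 to 748), 1133 (1096 to 1171) and 853 (802 to 906). Its log2 ratio of CBP-ablated to control, 0.71 (0.59 to 0.84), was the highest of the 10 past the gate, and it had the highest ratio over whole libraries too. Mobp is part of the gate, and with a gate of 3 UMIs of the other 3 genes the ratio was 0.79 (0.67 to 0.92). After thinning, Mobp was detected in 43.2%, 67.6% and 54.8% of the nuclei past the gate, in the same order.

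Mag (chromosome 7, 30899176 to 30914873, minus strand), the myelin protein that faces the axon, had 964, 1046 and 964 CPM. Mog (chromosome 17, 37010743 to 37023398, minus strand), on the outermost surface of myelin, had 885 CPM (825 to 948), 786 (756 to 818) and 731 (684 to 780). Mog was thus the member with its interval below 0 in both ablated libraries, with log2 ratios of -0.17 (-0.29 to -0.05) and -0.28 (-0.41 to -0.14). With Mog left out of the gate the ratios were -0.09 (-0.21 to 0.03) and -0.15 (-0.29 to -0.0027), so that counting error covers 0 for CBP. For CBP-ablated to control the ratio of Mog was 0.39 (0.27 to 0.52) with the 13-gene gate and 0.0063 as mean UMIs per nucleus.

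Cldn11 (chromosome 3, 31149920 to 31164324, plus strand), which forms the tight junction strands of central myelin, had 401 CPM (361 to 444), 514 (489 to 540) and 376 (343 to 412). The CBP-ablated nuclei were above both others, with log2 ratios of 0.36 (0.19 to 0.53) to control and 0.45 (0.30 to 0.60) to p300-ablated, while p300-ablated and control overlapped (-0.09, -0.29 to 0.11).

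Cldn14 (chromosome 16, 93919031 to 94008837, minus strand) had another order. It had 445 CPM (402 to 490) in control, 570 (544 to 597) in CBP-ablated and 776 (728 to 826) in p300-ablated nuclei past the gate, with 406, 1775 and 966 UMIs. The p300-ablated nuclei were the highest, by a log2 ratio of 0.80 (0.63 to 0.97) to control, and the CBP-ablated nuclei lay between, at 0.36 (0.20 to 0.52). Cldn14 was the highest of the 10 ratios of p300-ablated to control past the gate, where 0 of 10 members were 2-fold higher or lower against 1.48% and 0.615% of 3252 genes. After thinning, Cldn14 was detected in 33.7% (26.6 to 41.4), 41.5% (37.2 to 45.9) and 54.3% (47.1 to 61.3) of the nuclei. Its level in the median nucleus was 180, 256 and 606 CPM. Over the 14 other settings tried, the p300-ablated to control ratio of Cldn14 ranged from 0.60 to 1.02. The order of the ablated libraries was less firm: the CBP-ablated to p300-ablated ratio of Cldn14 ranged from -0.57 to 0.36, and it was -0.44 as reported, 0.36 (0.24 to 0.48) with a gate of 13 other mature genes, where CBP-ablated nuclei were the highest, and -0.38 with that gate without Ninj2.

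Mal, Ermn, Cnp and Opalin were sparse, with 29 to 317 UMIs past the gate in any library, and their intervals spanned 0 in both comparisons with control. Mal (chromosome 2, 127633226 to 127656695, minus strand), a raft protein of membrane traffic, had 49.3, 64.9 and 50.6 CPM. Ermn (chromosome 2, 58045113 to 58052864, minus strand), a cytoskeletal protein of late oligodendrocytes, had 31.8, 38.9 and 45.8 CPM. Ermn and Cnp overlap a gene on the opposite strand, Galnt5 and Dnajc7, and their UMIs are theirs only as far as the counting used strand. Cnp (chromosome 11, 100574904 to 100591729, plus strand) had 97.4, 102 and 77.1 CPM, and its CBP-ablated to p300-ablated ratio was 0.40 (0.07 to 0.75) on the log2 scale. Opalin (chromosome 19, 41061710 to 41077113, minus strand), a membrane protein of myelin paranodes, had 63.5, 76.7 and 73.1 CPM. Between CBP-ablated and p300-ablated nuclei past the gate, 0 of the 10 members were 2-fold higher or lower, where 1.03% and 2.07% of 5315 genes were.

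**Figure D3:**
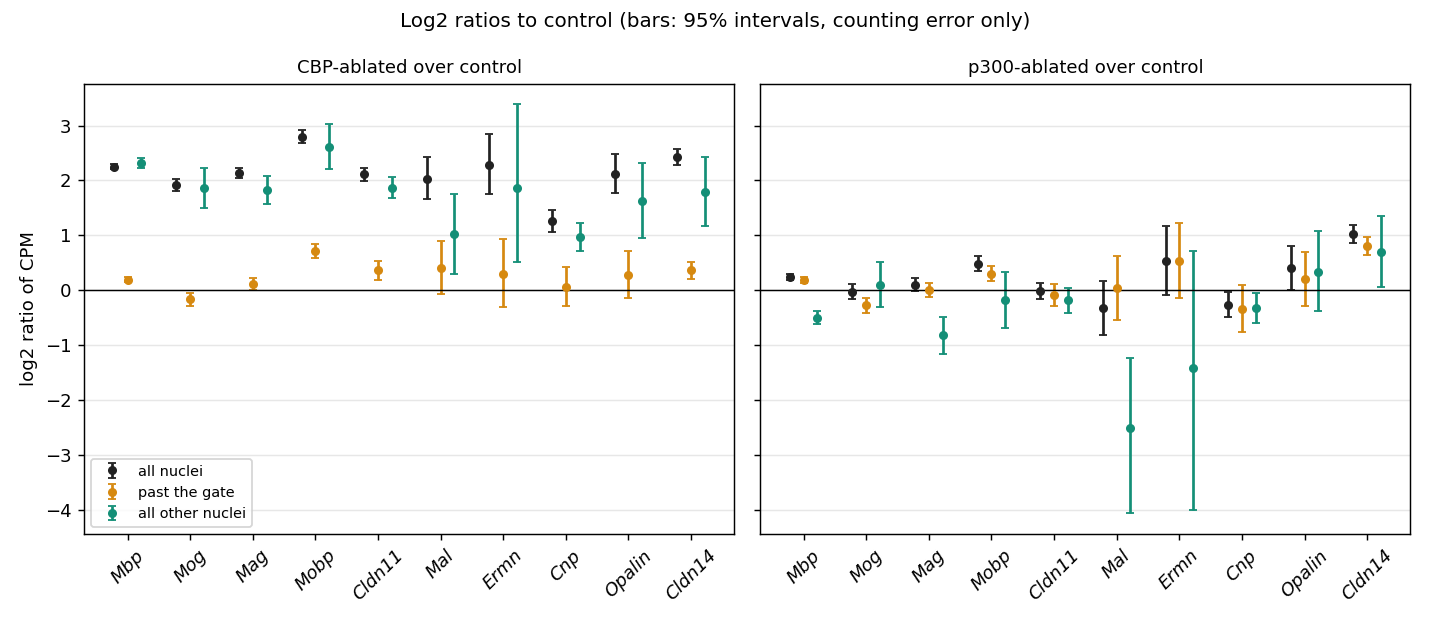
Log2 ratio to control of each gene in the CBP-ablated (left) and p300-ablated (right) library, over all nuclei, nuclei past the myelin gate and all other nuclei, with 95% intervals for counting error. At left the ratios past the gate lie between -0.17 and 0.71 while those of all nuclei lie between 1.27 and 2.79, and at right Cldn14 has the highest ratio in each group of nuclei.

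The share of a library's UMIs that lay in nuclei past the gate was 5.60% in control, 24.4% in CBP-ablated and 6.60% in p300-ablated, a log2 ratio to control of 2.13 and 0.24. If each gene kept its control level in both groups of nuclei and this share alone moved to its CBP-ablated value, Mbp would stand at 1223 CPM over the whole library, a log2 ratio of 1.82, where 2.25 was observed. For Mobp the same arithmetic gave 2.01 where 2.79 was observed, and for Cldn14 2.03 where 2.43 was observed. The share gave least for Cnp, 0.85 where 1.27 was observed, and Cldn11 had 1.41 where 2.11 was observed. Moving only the level past the gate gave 0.15 for Mbp, 0.66 for Mobp and 0.33 for Cldn14, and moving only the level in the other nuclei gave 0.96 for Mbp, 1.18 for Cldn11 and 0.76 for Cnp. For Mog the share alone gave 2.0, slightly over the 1.92 observed. In the p300-ablated library the share alone gave 0.22 for Cldn14 and the level past the gate alone 0.76, where 1.02 was observed. The level in the other nuclei can also move with their makeup. Nuclei past the premyelinating gate and not the myelin gate were 6.78%, 17.4% and 6.05% of all nuclei (control, CBP-ablated, p300-ablated). The arithmetic describes where the UMIs lay and is not an estimate of a cause.

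The 6 members outside the gate were higher in nuclei with 8 or more gate UMIs than in those with 0 or 1, in each library. The rise was not steady above the gate. From 6 to 7 gate UMIs to 8 to 15, Mbp fell in control. It also fell in p300-ablated nuclei, with overlapping intervals, and rose in CBP-ablated nuclei. In control, Cldn11 and Cldn14 each fell at a step above the gate too. In control, Mbp had 46.8 CPM in nuclei with 0 gate UMIs, 300.3 with 1, 4289 with 8 to 15 and 5303 with at least 16. In the CBP-ablated library the same groups had 232, 591, 4867 and 5966 CPM, and in the p300-ablated library 43.9, 171, 4677 and 6314 CPM. As a ratio, the libraries at matched gate UMIs thus differed most for Mbp at 0 and 1 gate UMIs, where CBP-ablated nuclei were the highest. In CPM the gap was wider at 16 or more gate UMIs, where p300-ablated nuclei were the highest.

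Cldn14 was nearly confined to nuclei with many gate UMIs. It had 594, 536 and 807 CPM (control, CBP-ablated, p300-ablated) at 8 to 15 gate UMIs and 432, 667 and 892 CPM at 16 or more, against 20.1, 22.3 and 71.2 CPM at 2 to 3. The p300-ablated nuclei were the highest in both of the upper groups, while CBP-ablated and control nuclei changed order between them. In nuclei that passed a premyelinating gate (10 UMIs of Enpp6 and Bcas1 together) and no other gate, Cldn14 had 6, 22 and 0 UMIs in 266, 463 and 208 nuclei, or 0.625%, 0.606% and 0% of the UMIs of the 6 members outside the gate, where it made up 7.67%, 8.45% and 11.6% past the myelin gate. The count of 0 is of 642 UMIs in the p300-ablated library.

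**Figure D4:**
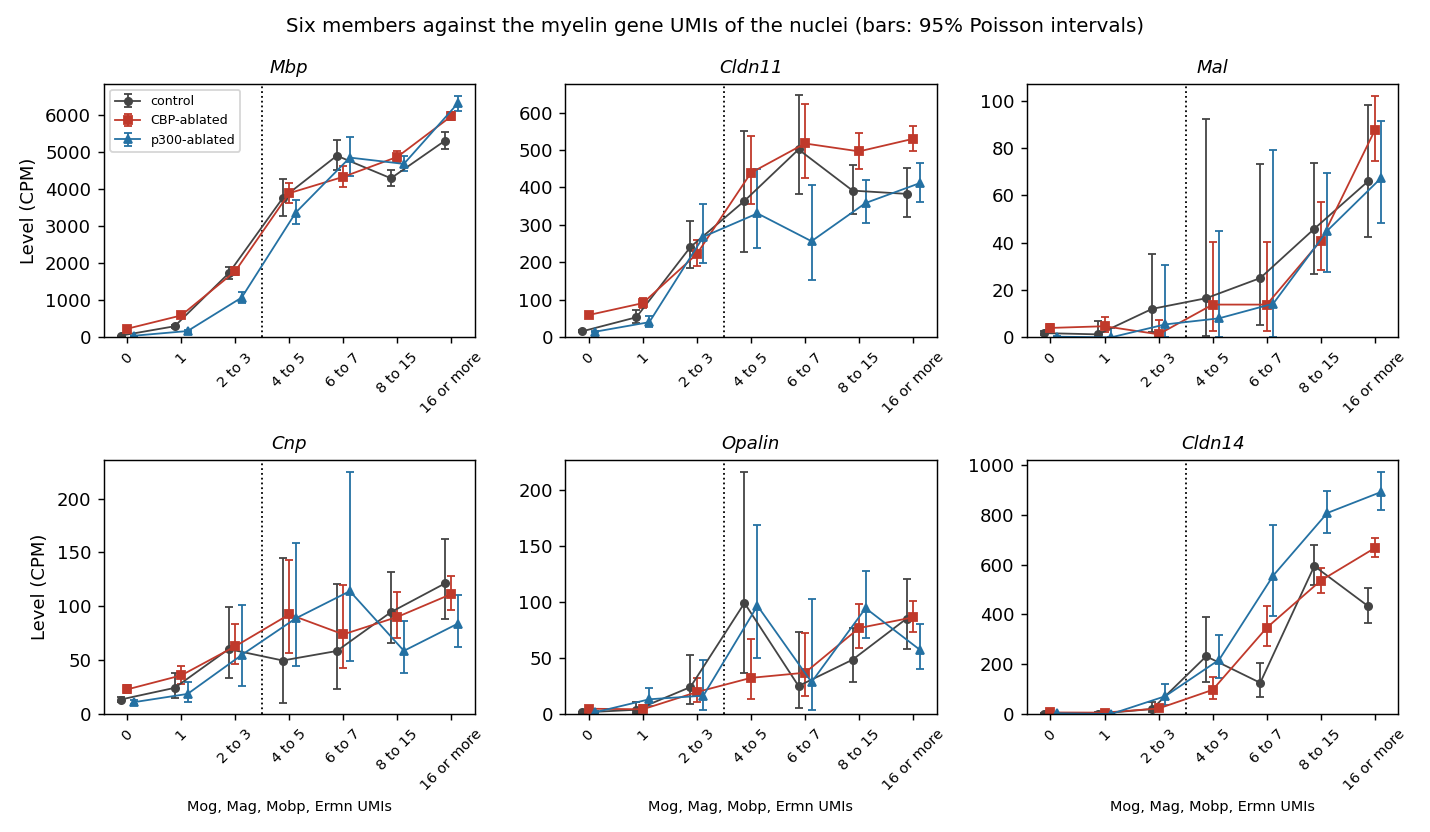
Level in CPM of the 6 members outside the gate, against the number of Mog, Mag, Mobp and Ermn UMIs of the nuclei, by library, with 95% Poisson intervals. A dotted line marks the gate. Mbp climbs already at 2 to 3 UMIs in all 3 libraries, whereas Cldn14 is low there and highest in p300-ablated nuclei at 8 or more.

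The members were also found outside the gate. Nuclei past it held 76.4%, 80.1% and 86.1% of the Mbp UMIs of the 3 libraries and 92.5%, 96.2% and 94.1% of those of Cldn14, but only 28.2%, 53.3% and 31.6% of those of Cnp. In all other nuclei, 9 of 10 members were at least 2-fold higher in the CBP-ablated library than in control, where 2.05% of 11486 genes were and 2.99% were 2-fold lower, with a median log2 ratio of 1.84 against 0.09 over all genes tested. Of the 7 members with 100 UMIs, as required of all genes, 6 were 2-fold higher. Mbp had 86.8 CPM there in control, 434 in CBP-ablated and 61.1 in p300-ablated nuclei, and Cldn11 had 21.8, 79.6 and 19.1 CPM. Between p300-ablated and control, 0 of the 6 members with 100 UMIs were 2-fold higher or lower in these nuclei, where 0.772% and 2.31% of 12046 genes were. Of the 4 sparser members, Mal had 30 and 6 UMIs in control and p300-ablated nuclei and Ermn 7 and 3, both more than 2-fold lower. Of all 10 members, 4 had an interval below 0, Mbp and Mag among them, 1 had it above 0 and 5 spanned 0. CBP-ablated nuclei were at least 2-fold above p300-ablated nuclei for 10 of 10 members, where 2.0% of genes were and 1.63% were 2-fold lower.

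Nuclei outside the myelin gate were split by marker gates of other cell types. Nuclei past the premyelinating gate had the most, with 905 CPM (851 to 961) of the 10 members together in control, 1758 (1704 to 1814) in CBP-ablated and 692 (642 to 746) in p300-ablated nuclei. Nuclei of other types had some too. In neuronal-gate nuclei the sum was 67.6, 267 and 74.7 CPM, in astrocyte-gate nuclei 59.0, 204 and 51.6 CPM, and in precursor-gate nuclei 51.3, 244 and 72.6 CPM. The CBP-ablated value was the high one in each type. The log2 ratio of CBP-ablated to control was 1.98 (1.60 to 2.38) in neuronal-gate, 1.79 (1.44 to 2.12) in astrocyte-gate, 2.25 (1.83 to 2.68) in precursor-gate and 1.28 (0.75 to 1.80) in microglial-gate nuclei, beside the log2 ratio of 2.13 in the share of UMIs past the myelin gate. Microglial-gate nuclei were shallow, with a median of 1382, 1354 and 1923 UMIs, and had 282, 684 and 144 CPM. Free RNA in the droplets can give a low level in every cell type. The values of the 10 members in neuronal-, astrocyte- and microglial-gate nuclei were used as a reference level. Whether they were free RNA or expression was not tested. Premyelinating nuclei were above these values in each library.

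**Figure D5:**
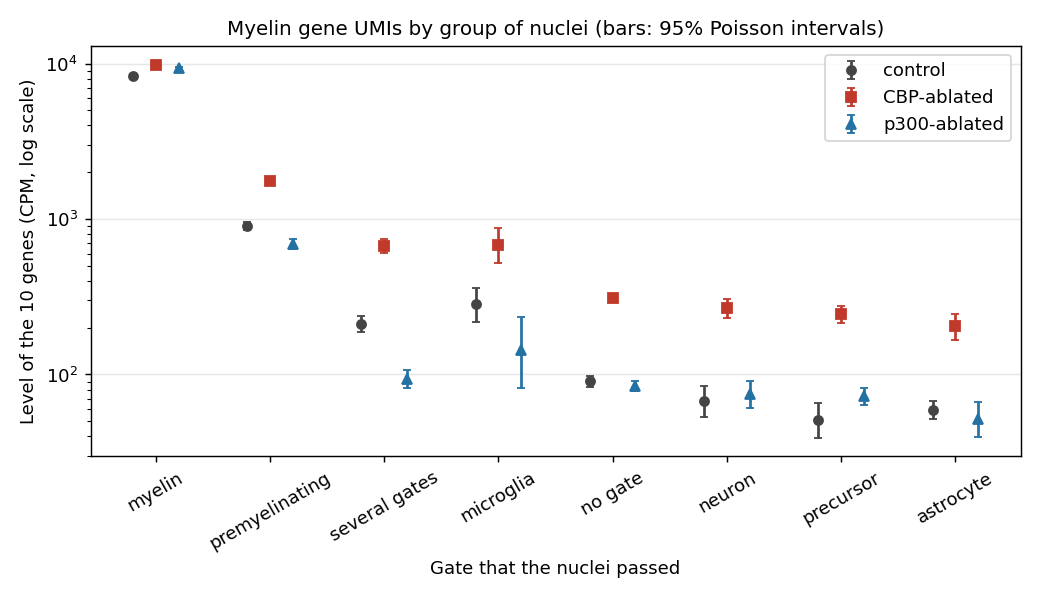
Level of the 10 genes together in CPM (log scale), by the marker gate that nuclei passed, in each library, with 95% Poisson intervals. Premyelinating nuclei lie below myelin nuclei and above all others in every library, and CBP-ablated squares lie above the other libraries in every group outside the myelin gate.

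The makeup of the members' UMIs in nuclei of other types differed from that past the gate. Among the UMIs of the 6 members outside the gate, Mbp made up 81.8%, 80.3% and 79.8% past the gate, and 55.4%, 68.8% and 57.4% in the precursor-, neuronal-, astrocyte- and no-gate nuclei together. Cnp made up 1.68%, 1.51% and 1.15% past the gate and 19.1%, 8.21% and 16.1% in those nuclei. The 6 members had 58.4, 208 and 62.4 CPM there. What part free RNA, nuclei caught together or low expression had in these values was not tested.

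Among nuclei past either the myelin or the premyelinating gate, those past the myelin gate made up 33.9% (29.8 to 38.3) in control, 49.4% (46.3 to 52.5) in CBP-ablated and 41.6% (37.1 to 46.1) in p300-ablated libraries. Nuclei past both gates were counted with the myelin gate. CBP-ablated exceeded control by 15.4 points (10.2 to 20.5) and p300-ablated exceeded control by 7.65 points (1.58 to 13.6). After thinning, the shares were 39.2%, 59.0% and 48.3%, and the interval of the p300 difference reached 0 (9.17 points, -0.221 to 18.3).

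Of 32 other genes of mature oligodendrocytes, 31 had 20 UMIs in the 2 libraries together, and over whole libraries 24 of these were at least 2-fold higher in CBP-ablated than in control, with a median log2 ratio of 1.5 against 0.06 over all genes. Past the gate 0 were 2-fold higher and 1 was 2-fold lower, with a median of 0.02 against 0.10 over all genes. The shares of all genes past 2-fold required more UMIs than the 20 asked of this and the other lists. Counts of listed genes past 2-fold in nuclei past the gate or whole libraries thus have no like share of all genes beside them. The highest were Hapln2, a link protein of the nodal matrix, at 0.65 (0.14 to 1.20), the connexin gene Gjb1 at 0.63 (-0.55 to 2.04) and Trf, which encodes transferrin, at 0.47 (0.22 to 0.73). Among the lowest were the cytokine gene Il33, at -1.39 on 13 and 10 UMIs, and Anln at -0.91 (-1.26 to -0.57).

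In p300-ablated nuclei past the gate, 2 of these 31 genes were at least 2-fold higher than in control and 0 were lower, with a median of 0.21 against 0.09 over all genes. Il33 had 10.9 CPM in control, 4.17 in CBP-ablated and 32.1 in p300-ablated nuclei, the last a log2 ratio of 1.55 (0.53 to 2.72) on 40 and 10 UMIs. Hapln2 had 40.5, 63.6 and 112 CPM, with p300-ablated nuclei the highest as for Cldn14, and a log2 ratio of 1.47 (0.94 to 2.04). Trf had 168, 232 and 294 CPM, in the same order, at 0.81 (0.54 to 1.09). The receptor gene Gpr37 was the lowest, at -0.93 (-1.57 to -0.30), and Tppp stood at -0.45.

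Genes of earlier and regulatory steps were set beside them. Past the gate, 11 of 12 premyelinating genes had 20 UMIs, and 0 were 2-fold higher and 1 was 2-fold lower in CBP-ablated than in control, with a median of -0.33. That gene was Itpr2, an inositol trisphosphate receptor that marks newly formed oligodendrocytes, with 373, 181 and 189 CPM and log2 ratios of -1.05 (-1.24 to -0.85) for CBP-ablated and -0.98 (-1.23 to -0.74) for p300-ablated. Enpp6, another marker of that stage, had 215, 128 and 181 CPM. The 9 regulators had a median of 0.00 in CBP-ablated nuclei, with Myrf at 163, 174 and 141 CPM and Sox10 at 389, 389 and 310.0 CPM. The log2 ratio of Sox10 was 0.00 (-0.17 to 0.18) for CBP-ablated and -0.33 (-0.54 to -0.11) for p300-ablated. Of 8 precursor genes, 2 were 2-fold higher in p300-ablated than control nuclei past the gate, Pdgfra at 1.95 (1.04 to 2.97) and Megf11 at 1.66 (0.77 to 2.66). Nuclei past the precursor gate were 27.1% of all p300-ablated nuclei, 11% of control and 10.8% of CBP-ablated, and the part of their free RNA in this was not tested. Pdgfra, Megf11 and Itpr2 were counted under the 20 UMIs asked of the lists. The shares of all genes past 2-fold required more, so these counts cannot be set against them.

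The genes most like the members in their distribution were ranked by the log2 ratio of the level past the gate to that in all other nuclei, using the smallest of the 3 libraries' values, over 2787 genes with at least 50 UMIs past the gate in each. The 10 highest that were no members were Prr5l (5.79), Tnni1 (5.79), Insc (5.69), Sec14l5 (5.68), 4930420G21Rik (5.47), D7Ertd443e (5.38), Kndc1 (5.33), Mast3 (5.27), 4930419G24Rik (5.15) and Rnf220 (5.08). The smallest value came from the CBP-ablated library for all 10, the library with the highest level of members outside the gate. By the same measure Mbp had 5.77, 3.64 and 6.45 in control, CBP-ablated and p300-ablated.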

How the data were processed

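Nuclei of 3 libraries, 1 per condition, were analysed. The authors deposited matrices of raw UMI counts per gene and nucleus, not normalized, made per the labels with Cell Ranger 3.1 on GRCm38 (mm10), and their processing notes also name FastQC 0.11.9 and Seurat 2.3.4. All deposited nuclei, each with at least 500 UMIs, were kept, and doublets were kept in the values reported (191, 73 and 173 nuclei were called, 8, 19 and 16 of them past the myelin gate). Libraries were grouped by their genotype labels. UMI sums, shares and ratios with their intervals came from scripts in Python 3.11.15 (scipy 1.17.1, numpy 2.4.6, pandas 2.3.3), doublets were called for an alternative with Scrublet in scanpy 1.11.5, and figures were drawn with matplotlib 3.10.9. Scripts were tested on simulated counts.

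Depth limits sparse members: a count of 0 allows 3 UMIs, or 0.184, 0.235 and 0.159 CPM over the control, CBP-ablated and p300-ablated libraries. Gates were, in UMIs together, premyelinating 10 (Enpp6, Bcas1), precursor 4 (Pdgfra, Cspg4), microglia 4 (Inpp5d, Fyb, Fli1, Csf1r, Dock2), neuron 6 (Adarb2, Cpne4, Gad1, Gad2) and astrocyte 6 (Slc7a11, Rorb, Slc1a2). A nucleus past several gates was kept apart. Shares of all genes past 2-fold were of those with at least 100 UMIs in the groups compared together, and members were counted without this filter unless stated. Named genes were all members and the 10 genes most like them. Of the other mature oligodendrocyte genes, the 3 highest and 3 lowest log2 ratios past the gate were named, as counted with 20 UMIs. From the premyelinating, precursor and regulator lists, only the genes of a count and Enpp6, Myrf and Sox10 were named, with their values known. Unnamed genes of these lists can be their highest or lowest. A gene that this rule covers is not reported here. The members, gates, lists and comparisons were chosen with earlier results of these data known. Gene positions came from GENCODE M21 and promoters from RefSeq. Alternatives changed the gate, the depth, the nuclei kept, the scaling and the filter on low counts.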

Additional observations from a re-analysis of the deposited data

How the results depend on the processing

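No paired analysis was possible because each condition had 1 library and no replicate number. Over the shares, medians and counts under all settings, 107 values moved by less than their counting error, or a count by less than 1.5 times, 37 moved further and 3 turned sign, counted only where the reported value's interval lay clear of 0. The CBP-ablated excess of nuclei past the gate over control stayed above 0 in all settings run and was 17.9 points with a gate of 2 UMIs, 11.6 with 8 UMIs, 8.57 after thinning, 10.7 with a gate of 13 other mature genes and 9.28 without Ninj2 among these, an alternative chosen after seeing the data. Ninj2 gave 81.7%, 85.6% and 87.7% of the gate UMIs in nuclei past that 13-gene gate alone. Over p300-ablated the excess was 17.2, 10.7, 8.14, 6.62 and 8.12 in the same order, and 14.3 without microglial-, neuronal- or astrocyte-gate nuclei. The p300-ablated excess over control was 4.11 with the 13-gene gate and 0.00108 without those nuclei. With Ninj2 left out of the 13 genes, 3.68% of p300-ablated and 2.52% of control nuclei passed that gate.

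The median log2 ratio of the 6 members past the gate was 0.035 after thinning and 0.78 with the 13-gene gate for CBP-ablated to control, -0.29 with the 13-gene gate for p300-ablated to control, and -0.14 and 1.03 for CBP-ablated to p300-ablated. For whole libraries the median of the 10 members was 2.47, 0.45 and 2.03 as mean UMIs per nucleus, and 1.88 for CBP-ablated to p300-ablated when centred. In all other nuclei, CBP-ablated to control was 1.61 without other-type nuclei, 2.08 per nucleus and 1.44 over the 3 members that kept a value with microglial levels subtracted. CBP-ablated to p300-ablated was 1.97 after thinning, 2.65 with the 13-gene gate, 2.58 without Ninj2, 1.91 for members with 20 UMIs in each library and 0.57 over 3 members with microglial levels subtracted. For p300-ablated to control it was -0.25 as reported, turned to 0.013 after thinning, 0.025 per nucleus and 0.23 over 4 members with microglial levels subtracted, and was -0.57 and -0.48 with the 13-gene gate and without Ninj2. With 20 UMIs required in each library, genes past 2-fold past the gate were 31 higher and 87 lower for CBP-ablated to control and 35 and 193 for CBP-ablated to p300-ablated, where 372 were higher in other nuclei.

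Of the single members' ratios under these settings, 872 moved by less than their counting error, 124 moved further and 11 turned sign, by the same rule. Values whose reported interval spanned 0 were not counted when they crossed it. Past the gate, CBP-ablated to control turned for Mag (-0.17 after thinning) and Mog (0.39 with the 13-gene gate, 0.0063 per nucleus), p300-ablated to control for Mbp (-0.18) and Mobp (-0.00125), and CBP-ablated to p300-ablated for Cldn14 (0.36), all with the 13-gene gate. For p300-ablated to control elsewhere, Cnp turned over whole libraries (0.016 per nucleus), and in other nuclei Mbp (0.10 after thinning), Cldn14 (-0.50 with the 13-gene gate, -0.48 without Ninj2) and Cnp (0.87, microglial levels subtracted). The causes were not tested. Counting intervals omit variation between cultures, so no ratio here has a replicate check.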
